A study of Mus musculus with 80 samples.

Results

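Heat shock proteins and their partner chaperones are described here in the lungs of 40 C57BL/6 mice aged 17 to 743 days. The genes were taken by symbol: the HSP70, HSP110, HSP90, HSP60, HSP10 and small heat shock protein genes, the J protein genes (Dnaja, Dnajb, Dnajc), the CCT chaperonin genes with Tcp1, the Bag genes, Stip1, Ahsa1, and the HSP-binding genes Hspbp1 and Hspbap1. The rule itself used no measured value, but it was set with earlier results of these data known. It gave 54 genes of the 7151 that had a cDNA spot with 1 gene symbol, on 98 of 9663 such spots. A gene with several spots is given by the spot of highest mean over the 40 mice, and 26 of the 54 genes had at least 2 spots. No filter on low values was applied, so all 54 genes were tested. Hspa1a, Hspa1b and Hsp90ab1 were not analysed here, and 2 spots shared by Bag4 and another symbol were left out.

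The study compared lung RNA of these mice by age and sex, and the labels name no transgene, allele or agent. There were 5 males and 5 females in each of 4 age groups, 17 to 44, 169 to 194, 476 to 499 and 704 to 743 days, and all had regular feed without restriction. The youngest group divides at a gap in age into 5 mice of 17 to 21 days (2 males, 3 females) and 5 of 33 to 44 days (3 males, 2 females). Each mouse was hybridised to 1 array for each of 2 sets of clones, called A and B, which hold different spots. Values are z scores within an array: the unit is the standard deviation over the spots of that array, so a difference is relative to the other spots and no fold can be given. P-values measure the spread between mice, 1 array per mouse and clone set, and "rose" or "fell" is used only for a limma p under 0.05 after adjustment over all 16896 spots.

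Chaperones bind proteins that are not yet folded, or that have unfolded, and keep them from clumping. HSP70 proteins do this in cycles of ATP use. J proteins bring in the client and start ATP use, and nucleotide exchange factors of the HSP110, BAG and HspBP1 kinds end the cycle and release it. HSP90 acts later on signalling proteins, the CCT ring folds actin and tubulin, and separate sets serve the endoplasmic reticulum and the mitochondria. Many of these genes are read constantly in unstressed tissue, lung included, while others respond to heat shock factor or to unfolded protein in the endoplasmic reticulum.

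Some features of the arrays bear on every value below. Residuals of spots 22 places apart in the spot order correlated at 0.435 on set A and 0.463 on set B, and those 528 apart at 0.39 and 0.407, across spots, which are not independent. The spots were therefore treated as 16 blocks of 24 lines and 22 columns, and each comparison of age was also made after taking from each array the median shift of the spots of 1 block and column. On set B the first component of the residuals divided the mice at title number 46, with 0.898 of its variance between mice below and from that number. The labels do not say what this number marks. Within the youngest group, the male of 40 days and the female of 33 days carry title numbers of 46 or more, and 0 of the 5 mice of 17 to 21 days do. Lung identity could be checked only in part, since z scores give no detection limit and 3 of 9 listed markers of alveolar type II cells were measured: Sftpd, Slc34a2 and Muc1. Their means stood at percentiles 48.6, 81.8 and 15.2 of the spots of their set. The measured liver markers Alb, Apoa1 and Ttr stood at 80, 93.6 and 42.8, so these levels do not settle identity. None of the 5 listed T cell markers and none of the 7 of heart and skeletal muscle was measured.

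Of the comparisons between groups, only that of 17 to 21 with 33 to 44 days called any chaperone gene. Within these 10 mice 8 of the 54 genes passed the threshold: 6 fell with age and 2 rose. The genes that fell were Hspa4, Hspbp1, Cct2, Tcp1, Hspa9 and Dnajc30, and those that rose were Dnaja1 and Cct6a. The shares were 11.1% of the chaperone genes down and 3.7% up. Over all 7151 genes 7.34% fell and 1.86% rose in the same comparison. The median difference was -0.0104 z for the chaperone genes and 0.00417 z for all genes. Of the 8 genes, 7 were read on set B, which held 20 of the 54 chaperone genes and 1065 of the 1264 spots called among all 16896.

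**Figure D1:**
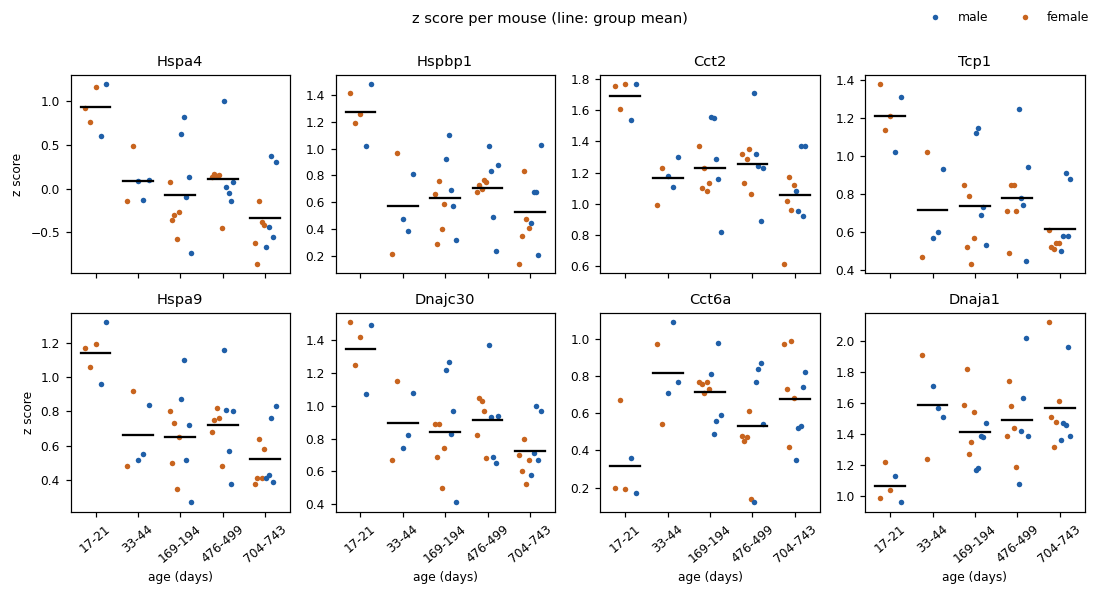
z score of each mouse (vertical axis) by age in days (horizontal axis) for the 8 chaperone genes that passed the threshold between 17 to 21 and 33 to 44 days, with males and females in different colours. Horizontal lines are group means over 5 mice in the first and second groups and 10 in the others; in the 6 genes that fell, the 17 to 21 day mean stands above the other 4 group means.

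Hspa4 (gene ID 15525), an HSP110-type nucleotide exchange factor that releases clients from HSP70, had the largest difference of the 54 genes. At 17 to 21 days its z scores were 0.92, 0.6, 0.76, 1.2 and 1.17. At 33 to 44 days they were -0.14, 0.49, 0.09, -0.13 and 0.1. All 5 older mice thus lay below the lowest of the 5 younger ones. The mean went from 0.93 ± 0.259 (SD, n = 5) to 0.082 ± 0.255 (SD, n = 5), and the difference fitted with sex as a term was -0.828 (SE 0.146, limma adjusted p = 0.0132). All age differences given here are fitted so, and can depart slightly from the difference of the means. The spot of Hspa4 lies in column 8 of set A, where 81 of 384 spots fell and 0 rose. After the shift of its block and column was taken out, the difference was -0.409 (95% interval -0.599 to -0.22, limma adjusted p = 0.06).

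Hspa4 also had the widest spread over the 40 mice, with an SD of 0.533 against a median SD of 0.189 over the 54 genes. Its values ranged widely in the adult groups too. At 169 to 194 days they ran from -0.74 to 0.82 with a median of -0.185. At 476 to 499 days the range was -0.45 to 1, with a median of 0.105, and at 704 to 743 days it was -0.87 to 0.37, with a median of -0.43. The oldest group had 10 of 10 mice under the median of the 17 to 44 day group, and 1 of 10 under the lowest mouse of 169 to 194 days.

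Hspa9 (gene ID 15526), or mortalin, is the HSP70 of the mitochondrial matrix, where it draws in and folds imported proteins. Its z scores were 1.17, 0.96, 1.06, 1.32 and 1.19 at 17 to 21 days and 0.48, 0.92, 0.52, 0.55 and 0.84 at 33 to 44 days, without overlap. It fell by 0.472 (SE 0.109, limma adjusted p = 0.0246). Its spot lies in column 9 of set B, where 254 of 384 spots passed the threshold and 251 of them fell, with a median of -0.401 over the column. With the shift of block and column taken out, the difference turned to 0.0357 (95% interval -0.0581 to 0.13, limma adjusted p = 0.749). The direction of the Hspa9 difference therefore depended on this step.

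The other members of the HSP70 and HSP110 family did not pass the threshold. Hspa8, the constitutive HSP70 of the cytosol (Hsc70), had values of 1.35, 1.56, 1.63, 1.36 and 1.43 at 17 to 21 days and 2.14, 1.58, 2.03, 1.7 and 1.79 at 33 to 44 days. In 4 of the 5 older mice Hspa8 lay above all 5 younger ones, with a difference of 0.385 (SE 0.115, limma adjusted p = 0.0631). Taking out the position shift left it at 0.389 (limma adjusted p = 0.126). Hspa5, or BiP, the HSP70 of the endoplasmic reticulum, had a mean of 0.576 ± 0.103 (SD, n = 5) and then of 0.826 ± 0.0969 (SD, n = 5), a difference of 0.247 (limma adjusted p = 0.0916). Hspa4l, a relative of Hspa4, differed by 0.176 (limma adjusted p = 0.257), in the direction opposite to Hspa4. Hspa14, an HSP70 bound to ribosomes, differed by -0.167 (limma adjusted p = 0.373). For Hsph1, the HSP105 exchange factor, and Hspa12a, a distant HSP70 relative, the differences were 0.0917 and -0.015.

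Hspbp1 (gene ID 66245) encodes HspBP1, a nucleotide exchange factor for HSP70. Its values were 1.41, 1.02, 1.19, 1.48 and 1.26 at 17 to 21 days and 0.22, 0.97, 0.48, 0.39 and 0.81 at 33 to 44 days, without overlap. It fell by 0.691 (SE 0.145, limma adjusted p = 0.0177). The spot of Hspbp1 lies in column 8 of set B, where 131 of 384 spots fell and 4 rose, and without the position shift the difference was -0.284 (95% interval -0.446 to -0.123, limma adjusted p = 0.0847). Hspa4 and Hspbp1, both exchange factors of HSP70, were thus the members with the largest differences before the correction, and each kept its direction after it. Both spots lie in column 8 of their set of clones. Hsph1 and Bag1, which are exchange factors too, did not pass the threshold. Hsph1 differed by 0.0917, in the opposite direction, as did Hspa4l, the relative of Hspa4. After the correction Bag1, too, went the opposite way, at 0.384. Cct6a, Dnaja1, Hspa8 and Bag1 then had larger differences than Hspbp1, all higher in the older mice.

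The other 8 co-chaperone genes had differences from -0.125 to 0.16 and none passed the threshold. Bag1, a BAG-domain exchange factor, differed by -0.0267 (limma adjusted p = 0.944) as deposited. With the position shift taken out, its means were -1 at 17 to 21 days and -0.608 at 33 to 44 days, a difference of 0.384 (95% interval 0.19 to 0.578, limma adjusted p = 0.065). Bag3, Stip1, which links HSP70 to HSP90, and Ahsa1, which activates HSP90, differed by -0.125, -0.00583 and 0.0533.

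Of the 8 CCT genes 2 fell, 1 rose and 5 did not pass the threshold. Each subunit is the product of its own gene and takes a fixed place in the ring. Cct2 (gene ID 12461), the beta subunit, had values of 1.76, 1.54, 1.61, 1.77 and 1.77 at 17 to 21 days and 0.99, 1.23, 1.18, 1.11 and 1.3 at 33 to 44 days, without overlap. It fell by 0.531 (SE 0.0858, limma adjusted p = 0.0127), the smallest adjusted p of the 54 genes. In its column, 6 of set B, 24 spots fell and 21 rose, and after the position shift was taken out the difference was -0.274 (95% interval -0.448 to -0.1, limma adjusted p = 0.113). The second spot of Cct2 differed by 0.0242 (SE 0.0927, limma adjusted p = 0.939), so its spots did not show the same change.

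Tcp1 (gene ID 21454), the alpha subunit, had values of 1.38, 1.02, 1.14, 1.31 and 1.21 and then of 0.47, 1.02, 0.57, 0.6 and 0.93. In 4 of 5 older mice it lay below all the younger ones, and it fell by 0.482 (SE 0.119, limma adjusted p = 0.03). Its spot shares column 9 of set B with Hspa9, and the difference was -0.131 without the position shift (limma adjusted p = 0.256). The other 2 spots of Tcp1, on set A, differed by -0.0192 and 0.0575 (limma adjusted p = 0.959 and 0.84).

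Cct6a (gene ID 12466), the zeta subunit, went the other way. Its values were 0.2, 0.36, 0.67, 0.17 and 0.19 at 17 to 21 days and 0.97, 0.54, 0.71, 1.09 and 0.77 at 33 to 44 days, so 4 of the 5 older mice lay above every younger one. It rose by 0.497 (SE 0.128, limma adjusted p = 0.0349). Column 20 of set B, where it lies, had 10 called spots of 384, and the difference stayed at 0.477 without the position shift (95% interval 0.204 to 0.751, limma adjusted p = 0.0855). Cct3, Cct4, Cct5, Cct7 and Cct8 differed by 0.151, 0.0642, -0.075, 0.0433 and 0.0225.

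Among the 23 J protein genes 1 rose and 1 fell. Dnaja1 (gene ID 15502), a cytosolic partner of Hspa8, had values of 0.99, 1.13, 1.22, 0.96 and 1.04 at 17 to 21 days and 1.91, 1.24, 1.71, 1.57 and 1.51 at 33 to 44 days, without overlap. It rose by 0.522 (SE 0.117, limma adjusted p = 0.0219). The spot of Dnaja1 lies in column 18 of set B, where 49 of 384 spots rose and 2 fell, with a median of 0.185 over the column. Without the position shift the difference was 0.432 and no longer passed the threshold (limma adjusted p = 0.0697). Its other 2 spots, on set A, differed by -0.025 and -0.06 (limma adjusted p = 0.945 and 0.824).

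Dnajc30 (gene ID 66114), a mitochondrial J protein, had values of 1.51, 1.07, 1.25, 1.49 and 1.42 and then of 0.67, 1.15, 0.74, 0.82 and 1.08. It fell by 0.442 (SE 0.119, limma adjusted p = 0.0425). This gene, too, lies in column 9 of set B, and without the position shift the difference was -0.0182 (95% interval -0.127 to 0.091, limma adjusted p = 0.907). Hspa9, Tcp1 and Dnajc30, the genes of that column, were the 3 of the 8 whose differences came closest to 0 after the correction.

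Other J proteins stayed short of the threshold. Dnajb11 (ERdj3), a partner of BiP, differed by 0.383 (limma adjusted p = 0.051), with 4 of 5 older mice above all the younger ones, and by 0.126 without the position shift. Dnajb1 (Hsp40), a heat-inducible partner of HSP70, differed by -0.27 (limma adjusted p = 0.129) and by 0.0237 without the position shift. Dnajc25, a membrane J protein, differed by -0.289 (limma adjusted p = 0.177). Dnajc7, which binds both HSP70 and HSP90, and Dnajc2, which acts at the ribosome, had the smallest differences, at -0.00167 and 0.000833.

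The HSP90, HSP60 and small heat shock protein genes did not pass the threshold either. Hsp90aa1, the inducible cytosolic HSP90, had values of 1.07 to 1.55 at 17 to 21 days and 1.14 to 1.56 at 33 to 44 days, a difference of 0.00167 (95% interval -0.251 to 0.255). Hspd1 (HSP60) and Hspe1 (HSP10), which together form the folding chamber of the mitochondrial matrix, differed by 0.0267 (95% interval -0.169 to 0.223) and 0.0317 (95% interval -0.173 to 0.237). Hspb1 (HSP25 in the mouse) and Hspb8 differed by -0.005 (95% interval -0.216 to 0.206) and -0.0125 (95% interval -0.308 to 0.283). Over the 46 genes that did not pass the threshold the differences ran from -0.289 for Dnajc25 to 0.385 for Hspa8, and for 13 of them the 95% interval lay within 0.25 z on either side of 0.

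**Figure D2:**
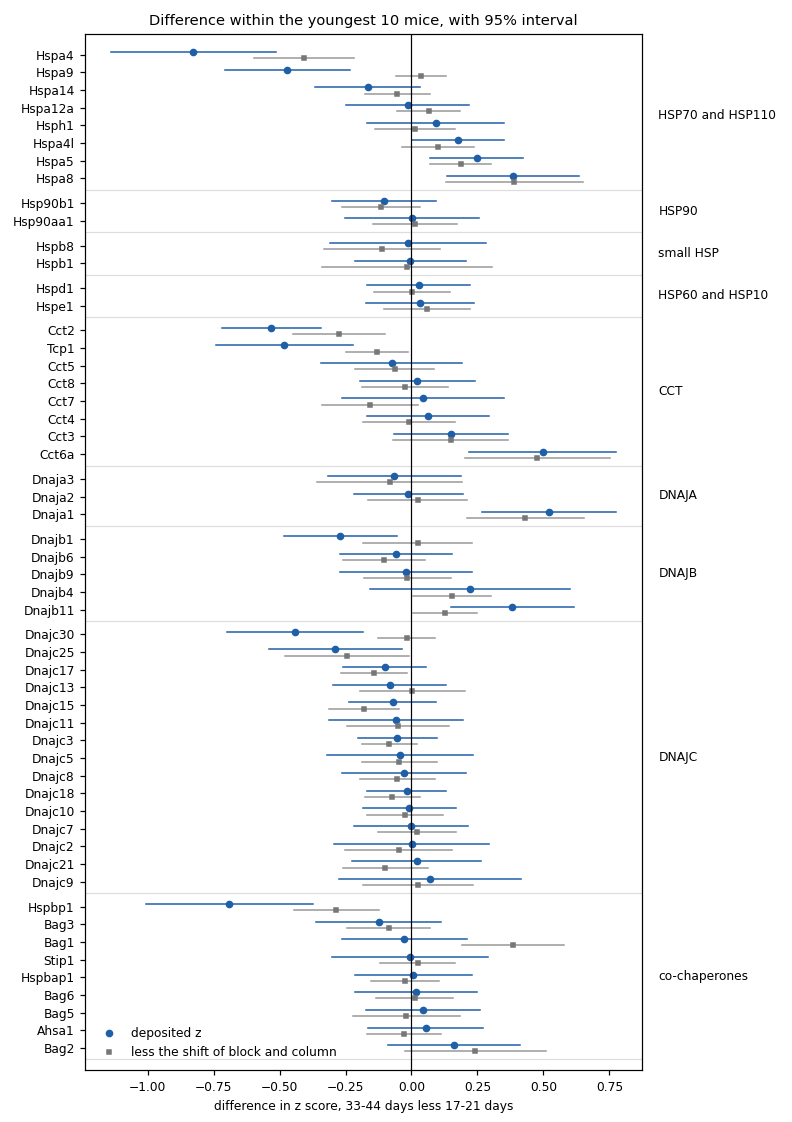
Difference in z score between 33 to 44 and 17 to 21 days (horizontal axis, older less younger) for each of the 54 chaperone genes, grouped by family, with 95% intervals. Blue circles are the deposited z scores and grey squares the same after the shift of block and column was taken out; Hspa4 moves from -0.828 to -0.409, Hspa9 from -0.472 to 0.0357, and Cct6a from 0.497 to 0.477.

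With the shift of block and column taken out, 0 of the 54 chaperone genes and 0 of all 16896 spots passed the threshold in limma between 17 to 21 and 33 to 44 days. At an unadjusted p under 0.05 there were 14 of 54 chaperone genes, 25.9%, 7 of them higher and 7 lower in the older mice. Over all genes 16.8% did so. Of the 8 genes called before, 7 kept their sign and 6 an unadjusted p under 0.05. With title number from 46 on as a block, 0 of the 8 passed (limma adjusted p from 0.0782 for Hspa4 and Cct2 to 0.175 for Dnajc30), and all 8 kept their sign. The title number runs through the 8 groups of sex and age 5 times. With these 5 sets of mice as a block, the count was 0 too. Single mice also decided the count of 8: it was 0 without the male of 19 days, 0 without the female of 33 days, 2 without female 1 of 17 days and 3 without the female of 21 days. With each mouse left out in turn the count ran from 0 to 11, so it could also go up. The share of all genes in these fits is not given here.

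Genes with several spots showed how far a difference was shared by clones of 1 gene. Spots of a gene are different cDNA clones, and near-identical copies of a gene can hybridise to them. Of the 26 chaperone genes with at least 2 spots, 9 had the same sign at every spot between 17 to 21 and 33 to 44 days and 17 did not. Hsp90aa1, with 7 spots, had differences from -0.176 to 0.0708 and Hspd1, with 3, from 0.0267 to 0.115. Hspa8 had 1 spot at 0.385 and 3 others at 0.0592, -0.105 and -0.0858. Hspa5 was at 0.247 on its set B spot and at -0.436 (limma adjusted p = 0.0687) on a spot in column 8 of set A, the column of Hspa4. When all spots of a gene were averaged, 5 of the 54 genes passed the threshold in place of 8, and Cct2, Tcp1 and Dnaja1 no longer did (limma adjusted p = 0.101, 0.321 and 0.358). The other 5 of the 8, Hspa4, Hspa9, Hspbp1, Dnajc30 and Cct6a, have 1 spot each, so averaging could not change their values. None of the called genes with more than 1 spot thus passed with averaged spots. The share of all genes that passed with averaged spots is not given here.

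**Figure D3:**
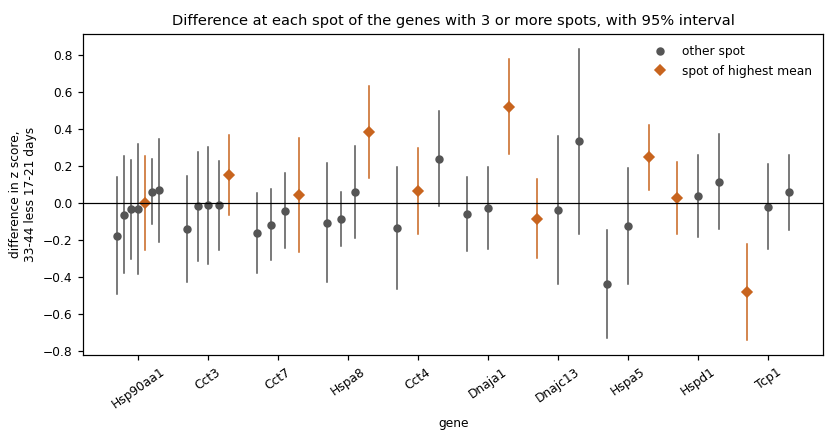
Difference in z score between 33 to 44 and 17 to 21 days (vertical axis) at each spot of the 10 chaperone genes with 3 or more spots, with 95% intervals. Diamonds mark the spot of highest mean, which stands for the gene, and circles its other spots; for Tcp1 and Dnaja1 the diamond is at -0.482 and 0.522 while both circles of each lie between -0.06 and 0.0575.

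Over the whole span from 17 to 743 days, no chaperone gene passed the threshold in the linear test, though this count depended on how it was made. The slope over 40 mice, with sex as a term, passed the threshold for 0 of 54 genes in limma, and for 0.0178% of all spots. It passed for 7 genes, all with a negative slope, when arrays were weighted by their quality, and for 2 without the dimmest 33.3% of spots. The share of all genes under these settings is not given here, so these counts cannot be read as particular to chaperones. Leaving out 1 mouse gave 0 to 5 genes, and more than 0 for 11 of the 40 mice, again without the share of all genes. At an unadjusted p under 0.05 there were 9 genes, 2 with a positive and 7 with a negative slope, or 16.7%. Over all genes 15.5% reached that level. The smallest p belonged to Hspa4, at -0.0945 z per 100 days (95% interval -0.147 to -0.0416, limma adjusted p = 0.0544). It was followed by Dnajb1 at -0.032 (limma adjusted p = 0.0684), Cct2 at -0.0444 (limma adjusted p = 0.0863), Dnajc30 at -0.0449 (limma adjusted p = 0.0975) and Hspa9 at -0.0426 (limma adjusted p = 0.106). Dnajc30 and Hspa9 lie in column 9 of set B, where the median slope over all spots of the column was -0.0379. The positive slopes at that level were those of Dnaja1, 0.0335, and Hspa4l, 0.0172. The median slope was 0.00436 z per 100 days for the chaperone genes and 0.00191 for all genes. After the position shift was taken out, 0 genes passed and 7 had an unadjusted p under 0.05, 13%, against 12.3% of all genes. The slopes of Hspa4, Cct2 and Dnajb1 were then -0.0594, -0.0302 and -0.0124, and that of Hspa9 had changed sign.

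On a logarithmic scale of age, which gives the youngest mice more weight, 7 chaperone genes fell and 0 rose. They were Hspa4, Dnajb1, Dnajc30, Cct2, Hspa9, Tcp1 and Hspbp1, 13% of the 54, where 7.61% of all genes fell and 1.40% rose. With array weights 7 fell and 5 rose, and the share of all genes under that setting is not given here. Hspa4 fell by 0.161 z per doubling of age (SE 0.0356, limma adjusted p = 0.00552) and Dnajb1 by 0.0527 (SE 0.0131, limma adjusted p = 0.00895). Both spots lie in column 8 of set A. The other 5 slopes ran from -0.0827 for Hspbp1 to -0.0712 for Tcp1, with limma adjusted p from 0.0109 to 0.0295. Of the 7 genes 6, all but Dnajb1, were also among those that fell between 17 to 21 and 33 to 44 days, and both tests include those 10 mice.

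The values of Dnajb1 show the size of such a slope against the spread. The youngest 10 mice ran from -0.11 to 0.48, with a median of 0.15. Those of 169 to 194 days ran from -0.19 to 0.39 (median -0.04), and those of 476 to 499 days from -0.19 to 0.31 (median 0.005). The oldest ran from -0.3 to 0.15 (median -0.165), and 6 of them were lower than any mouse of 17 to 44 days. The second spot of Dnajb1 had a slope of 0.0287 z per doubling (limma adjusted p = 0.324), of the opposite sign.

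After the position shift was taken out, 2 genes fell on the logarithmic scale: Cct2, with a slope of -0.0518 z per doubling of age (SE 0.0108, limma adjusted p = 0.00472), and Hspa4, with -0.0978 (SE 0.0215, limma adjusted p = 0.00706). These are 3.7% of the 54 genes, and 3.16% of all genes fell and 1.26% rose. From the youngest to the oldest of the 5 groups, Cct2 had corrected means of 1.52, 1.25, 1.23, 1.21 and 1.14. The corrected means of Hspa4 were 0.53, 0.114, -0.0152, 0.0737 and -0.204. In both genes the mice of 17 to 21 days had the highest mean and those of 704 to 743 days the lowest. Hspa9 had a slope of 0.0113 after this step (limma adjusted p = 0.187), positive where it had been negative. The second spot of Cct2 had a slope of 0.00483 (limma adjusted p = 0.915). For Hspa8 a second spot on set B fell after this step, with a slope of -0.0385 (limma adjusted p = 0.00868), while the spot of highest mean was at 0.0313 (limma adjusted p = 0.479). The Hspa5 spot in column 8 of set A had a slope of -0.0876 as deposited (limma adjusted p = 0.0179) and of -0.00691 after the step (limma adjusted p = 0.904).

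**Figure D4:**
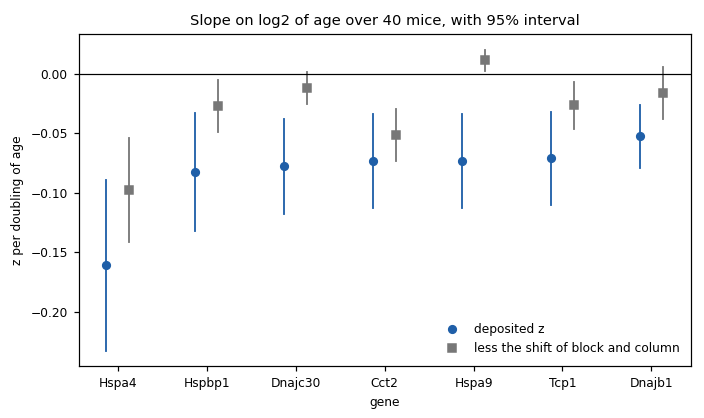
Slope in z score per doubling of age over 40 mice (vertical axis) for the 7 chaperone genes that fell on the logarithmic scale, with 95% intervals. Blue circles are the deposited z scores and grey squares the same after the shift of block and column was taken out; Hspa4 and Cct2 keep intervals well below 0, at -0.0978 and -0.0518.

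These slopes rested on the youngest mice. Without the 5 mice of 17 to 21 days, 0 chaperone genes and 1 of all spots passed on the logarithmic scale in limma, and the slopes were -0.0637 for Hspa4 and -0.0155 for Cct2 (limma adjusted p = 1 for each). Leaving out 1 mouse gave 2 genes without female 1 of 17 days, 2 without the male of 19 days and 3 without the female of 21 days, in place of 7. The share of all genes without each of these mice is not given here. Among the 13 mice with title numbers from 46 on, none of them aged 17 to 21 days, 0 genes passed, and the slope of Tcp1 was 0.01095. With the mice below that number alone, 7 of the 54 genes fell and 2 rose, where 8.98% of all genes fell and 3.20% rose.

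In adult life no change was detected. Over the 30 mice of 169 days and older, 0 of 54 genes passed the threshold in limma, and 1 had an unadjusted p under 0.05: Cct3, the gamma subunit of the CCT ring, at -0.0306 z per 100 days (95% interval -0.0603 to -0.000887). Over all genes 2.59% reached that level. From 169 to 194 days to 704 to 743 days, too, 0 genes passed and Cct3 was the only one with an unadjusted p under 0.05, while 2.31% of all genes reached it. Cct3 ran from -0.01 to 0.56 with a median of 0.265 in the first of these groups and from -0.24 to 0.32 with a median of 0.17 in the second, a difference of -0.168 (95% interval -0.318 to -0.0177, limma adjusted p = 0.999). On log2 of age over all 40 mice, the youngest included, the 4 other spots of Cct3 had slopes from -0.0191 to 0.00966 z per doubling. Whether they share the adult difference cannot be told from that fit.

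Between 17 to 44 and 169 to 194 days, 0 genes passed the threshold in limma. There were 6 with an unadjusted p under 0.05, all lower in the older mice: Hspa4 at -0.576, Hspbp1 at -0.293, Dnajc30 at -0.279, Hspa9 at -0.25, Tcp1 at -0.227 and Dnajb1 at -0.162. That is 11.1% of the chaperone genes, beside 7.24% of all genes. The younger group of this comparison holds the 17 to 21 day mice. The spots of Hspa4 and Dnajb1 lie in column 8 of set A, and that of Hspbp1 in column 8 of set B. Those of Dnajc30, Hspa9 and Tcp1 lie in column 9 of set B. Within the 17 to 44 day group, the median differences over all spots of these columns were -0.127, -0.267 and -0.401, older less younger. Whether the 6 differences from that group to 169 to 194 days remain without the position shift is not given here.

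No gene differed detectably between the sexes. In limma 0 of 54 genes passed the threshold between males and females, and 3, or 5.56%, had an unadjusted p under 0.05, where 1.47% of all genes did. Dnajb1 was 0.149 higher in males (95% interval 0.045 to 0.254, limma adjusted p = 1), with 17 of 20 males above the female median. Dnajb9 (ERdj4) and Dnajc3 (p58IPK), both of the endoplasmic reticulum, differed by -0.107 and -0.083, male less female. For the difference between the male and the female age slope, 0 of 54 genes passed and 0 had an unadjusted p under 0.05, where 1.83% of all genes did.

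Promoter sequences were looked up for what the chaperone genes share in their control. RefSeq windows of assembly GRCm38.p6, from 250 bases before to 50 after the start site, were given for 45 of the 54 genes. Each was searched on both strands for 3 motifs. The heat shock element was taken as TTC, GAA and TTC with 2 bases of any kind between neighbours, and the endoplasmic reticulum stress element as CCAAT and CCACG with 9 bases between them. The last was CCAAT alone, which the stress element contains. The heat shock element was found at 4 of 45 chaperone genes (8.89%) and at 0.662% of 27025 genes. The stress element was found at 3 of 45 (6.67%) and at 0.137%, and CCAAT at 17 of 45 (37.8%) and at 41.1%.

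The stretches that hold the stress element upstream of the start site belong to Hspa5, to Hsp90b1 (GRP94, the HSP90 of the endoplasmic reticulum) and to Dnajc3, a J protein of that compartment. They are shown because BiP and its partners are the compartment's own set, with the matched letters in capitals, at chr2:34772005-34772063 (plus strand), chr10:86705513-86705676 (minus strand, 2 matches) and chr14:118937807-118937865 (plus strand).
Hspa5: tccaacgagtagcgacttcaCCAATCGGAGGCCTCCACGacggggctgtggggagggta
Hsp90b1: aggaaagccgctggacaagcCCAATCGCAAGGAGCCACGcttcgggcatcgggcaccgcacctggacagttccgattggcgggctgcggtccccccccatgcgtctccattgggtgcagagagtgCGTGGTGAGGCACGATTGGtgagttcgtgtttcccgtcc
Dnajc3: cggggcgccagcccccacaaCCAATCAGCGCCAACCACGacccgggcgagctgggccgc

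Between 17 to 21 and 33 to 44 days none of these 3 genes passed the threshold. At the spot of highest mean Hspa5 differed by 0.247, Hsp90b1 by -0.104 and Dnajc3 by -0.0533. The 3 spots of Hspa5 ran from -0.436 to 0.247, 2 of them below 0, and the 2 spots each of Hsp90b1 and Dnajc3 were all below 0. Whether the 3 genes moved alike cannot be told from these differences. Over all 40 mice the slopes of Hspa5, Hsp90b1 and Dnajc3 at those spots were 0.0142, -0.0128 and 0.00688 z per 100 days. Across its 3 spots Hspa5 had slopes from -0.0513 to 0.0142.

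The heat shock element lay upstream of Hspd1, Hspe1 and Dnajb6, and after the start site of Hsph1, which is not shown. Hspd1 and Hspe1 share 1 stretch, since they are read in opposite directions from it, and in that stretch 2 matches overlap. It is shown on the Hspd1 strand at chr1:55088039-55088096 (minus strand), followed by the stretch of Dnajb6 at chr5:29735832-29735884 (plus strand), with the matched letters in capitals.
Hspd1: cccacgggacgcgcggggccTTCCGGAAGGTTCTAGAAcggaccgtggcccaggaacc
Dnajb6: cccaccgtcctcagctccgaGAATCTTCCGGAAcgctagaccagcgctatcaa

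At the spots of highest mean, no change with age was detected for Hspd1 and Hspe1, which share this stretch. Hspd1 had medians of 1.49, 1.45, 1.47 and 1.51 in the 4 age groups from youngest to oldest, and Hspe1 of 0.84, 0.84, 0.665 and 0.79. Their slopes over 40 mice were 0.00707 (95% interval -0.00941 to 0.0235) and -0.012 (95% interval -0.0322 to 0.00823) z per 100 days. The 3 spots of Hspd1 did not agree, with slopes from -0.0458 to 0.0115. In limma 0 of them passed the threshold and 1 had an unadjusted p under 0.05. After the position shift was taken out they ran from -0.0475 to 0.00657, again with 0 passing and 1 at that level. Dnajb6, a J protein that holds back aggregation, differed by -0.0592 between 17 to 21 and 33 to 44 days.

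Other genes of protein folding were followed from a list of 70, of which 51 were measured. Within the youngest mice 5 of the 51 fell and 1 rose, where 7.34% of all genes fell and 1.86% rose, and the median difference was 0.000833 z. Those that fell were Pdcl3, a cofactor of the CCT ring (-0.651), Grpel2, an exchange factor for Hspa9 (-0.522), Clpx, a mitochondrial unfoldase (-0.504), St13 or Hip, which steadies HSP70 with its client (-0.387), and Serpinh1 or HSP47, the collagen chaperone (-0.329). Vcp, an ATPase that pulls proteins out of complexes, rose by 0.4658. The limma adjusted p of these 6 ran from 0.0142 to 0.0455, and after the position shift was taken out 0 passed, with 11 of the 51 at an unadjusted p under 0.05, where 16.8% of all genes reached it. On the logarithmic scale of age, Pdcl3, Serpinh1 and St13 fell and Xbp1, a transcription factor of the unfolded protein response, rose by 0.0363 z per doubling, 3 and 1 of the 51 beside 7.61% and 1.40% of all genes. With the position shift taken out, of these 4 only Serpinh1 passed, at -0.0196 (limma adjusted p = 0.0248). Pdcl3, St13 and Xbp1 were at -0.0286, -0.00982 and 0.0084 (limma adjusted p = 0.0927, 0.51 and 0.585), and Atf4, a transcription factor of the stress response, rose by 0.0529 (limma adjusted p = 0.0193). Over 40 mice on the linear scale 0 of the 51 passed in limma, and 5 had an unadjusted p under 0.05, where 15.5% of all genes did.

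Markers of blood moved with the same step in age. All 5 measured blood markers (Hba-a1, Hba-a2, Hbb-y, Alas2 and Fech) fell between 17 to 21 and 33 to 44 days, and their summed z score ran from 8.01 to 10.03 in the younger and from 4.48 to 6.96 in the older mice. With the position shift taken out, 0 of these 5 passed in limma, 4 had an unadjusted p under 0.05, and the median difference went from -0.644 to -0.248. Of 4 fibroblast and smooth muscle markers the 3 collagen genes fell, and the sum over the 4 ran from 4.72 to 5.27 and then from 3.64 to 4.4. With the position shift taken out 0 of these 4 passed in limma and 1 had an unadjusted p under 0.05: Col1a1 was at -0.34, Col1a2 at 0.0067 and Col3a1 at -0.0556 (limma adjusted p = 0.0634, 0.968 and 0.682). Of 5 proliferation markers Ccna2 fell, by 0.587, and was at -0.12 after that step (limma adjusted p = 0.242). None of the 7 immediate early genes, which respond to tissue handling, fell: limma gave 0, and 1 had an unadjusted p under 0.05. On the logarithmic scale of age, too, all 5 blood markers fell, with Hba-a1 at -0.12 and Hba-a2 at -0.2 z per doubling, and so did the 3 collagen genes (-0.0653 to -0.0561), Ccna2 (-0.0977) and Slc34a2 (-0.0556), while Ighm rose by 0.243 and Cbr2 by 0.0483. After the position shift was taken out, Hba-a1, Hba-a2, Alas2 and Col1a1 still fell and Ighm rose, and Hbb-y, Fech, Col1a2, Col3a1, Ccna2, Slc34a2 and Cbr2 did not pass. In whole lung, fewer cells of a type and less RNA per cell cannot be told apart. Whether these markers have a part in the changes of Hspa4, Hspbp1, Cct2 or the other chaperone genes, on either scale, was not tested.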

How the data were processed

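The deposited values are z scores per spot, made by the authors from 33P-labelled lung cDNA hybridised to arrays, per the labels' protocols (RNeasy extraction after bead disruption). The sources used here do not give the scale under the score, the background correction or any spot filter. Array medians ran from -0.1 to -0.01 on set A and from -0.11 to 0.02 on set B, 40 arrays of 8448 spots each. Of 16896 spots, 9663 had 1 gene symbol in the platform annotation, 436 several and 6797 none. The genes and lists were chosen with earlier results of these data known.

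Models were fitted with limma 3.58.1 under R 4.3.3 (lmFit and eBayes, two-sided tests) on all spots of each set, with Benjamini-Hochberg adjustment over the 16896 spots and a threshold of 0.05. Age fits had sex as a term; steps between age groups and the sex difference came from 8 means of sex and age group. The number of arrays limits the precision. Spot position was corrected by taking from each value the median, over the 24 spots of its block and column, of their deviations from each spot's mean over the mice, in a layout read from the data. Named were all genes called, the 4 of smallest p in each comparison, the 3 of smallest p and the highest mean of each family, families of up to 6 genes, and genes with 3 or more spots. Fits were tested on simulated data. Alternatives were other normalization, spot filters, variance settings, array weights, title number, age scale, subsets of the mice, and leaving out single mice. The logarithmic age scale was listed as an alternative; leaving out the mice of 17 to 21 days there, array weights on that scale, the division from title number 46 on, and a block for sets of the title number were added after seeing the data. The description of 1 male of the oldest group names another mouse. Promoters are RefSeq's. Figures used matplotlib in Python.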

Additional observations from a re-analysis of the deposited data

Results flagged for a closer look

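Dixon's test at 95% was run on all 54 chaperone genes in 6 groups of mice each, 324 groups, and 18 values stood apart from their group. Chance flags about 1 in 20 groups. The youngest 10 mice were tested together and as their 2 groups of 5, which share mice. No value below was explained or left out.

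For Hspa4, male 2 of 476 to 499 days (476 days) had a z score of 1, where the next highest of the 10 mice had 0.17. Also at 476 to 499 days, the lowest values that stood apart were Bag1 in female 5 (-1.19, next -0.85), Dnajc25 in female 4 (-2.52, next -2.22) and Hspbap1 in female 2 (1.44, next 1.66).

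At 704 to 743 days the values that stood apart came from 2 females. Female 5 (704 days) was highest for Bag2 (0.89, next -0.26) and Cct8 (1.38, next 0.91), and lowest for Dnajc8 (0.5, next 0.87) and Hspa12a (-0.79, next -0.5). Female 3 (712 days) was highest for Bag1 (0.13, next -0.47) and Dnajb9 (1.39, next 1), and lowest for Dnajc25 (-3.56, next -2.38).

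At 169 to 194 days, male 4 (180 days) was lowest for Dnajc9 (-0.31, next 0.15). Over the 10 mice of 17 to 44 days, female 4 (40 days) was highest for Bag1 (-0.35, next -0.62) and male 4 (17 days) lowest for Cct3 (-0.12, next 0.11). Among the 5 mice of 17 to 21 days, female 1 (17 days) was highest for Dnajb4 (0.73, next 0.06) and female 3 (21 days) lowest for Hspa4l (-0.41, next -0.26). Among the 5 of 33 to 44 days, male 1 (43 days) was highest for Dnajb4 (0.9, next 0.23) and female 4 (40 days) lowest for Bag3 (-0.8, next -0.52).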

How the results depend on the processing

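The title number runs through the 8 groups of sex and age 5 times, which gives 5 sets of 8 mice. The labels do not say that a set shares anything, and the main fits assumed no pairing. Residuals of 140 pairs within sets correlated above 0.1 in 71 pairs on set A of clones and 95 on set B. The median correlation was 0.107 and 0.244 within sets, against -0.0377 and -0.0951 between sets. On A and B, 23 and 14 of 40 mice were closest to their own set. Mice of a set thus tended to deviate together, which the main fits leave out. With these sets as a replicate block, added after seeing the data, the count of chaperone genes called went from 0 to 1 for the linear slope (Hspa4), from 0 to 2 for that slope after position correction (Hspa4 and Cct2), from 8 to 0 between 17 to 21 and 33 to 44 days, and from 7 to 8 on the logarithmic scale; the other counts stayed 0. Array weights on the logarithmic scale gave 12 in place of 7. For the linear slope over 40 mice, the count of genes called (0) became 2 without the dimmest 33.3% of spots, 7 with array weights and 7 with log2 of age, and 0 to 5 with 1 mouse left out. It was above 0 without each of 11 mice: males 1 and 5 and female 5 of 17 to 44 days, males 1 and 3 and females 2, 3 and 5 of 169 to 194 days, male 2 of 476 to 499 days, and males 1 and 4 of 704 to 743 days. After the position correction that count (0) became 2 with array weights and 2 with log2 of age, and 0 to 2 with 1 mouse left out (above 0 without male 5 or female 5 of 17 to 44 days, male 3 or female 2 of 169 to 194 days, male 2 of 476 to 499 days, or male 1 of 704 to 743 days). Between 17 to 21 and 33 to 44 days, 8 became 5 with the mean of all spots, 3 with correction by column alone, 0 with correction by block and column, 0 with title numbers above 46 as a block, 0 with those up to 46 alone, 0 with those from 46 on as a block and 0 with those below 46 alone, and 0 to 11 with 1 mouse left out. After the position correction its count (0) became 1 with quantile normalization, 4 without the dimmest 33.3%, 2 with trend and robust settings and 3 with correction by column alone, and 0 to 5 with 1 mouse left out, the 5 without female 4 of 17 to 44 days. The other 5 counts were 0 under every alternative run. Shares of all genes are not given with these counts. Among the 8, the mean of all spots could change the values of Cct2, Tcp1 and Dnaja1 only, since the others have 1 spot each. Of the 21 single gene results followed through the alternatives, those called or of smallest p, 2 changed sign: Hspa9 to 0.0357, given above, and, for Tcp1, age slope over 40 mice after correction for spot position, to 0.001505 with title numbers above 46 alone. Over all 54 genes the position correction changed the sign of 16 differences between 17 to 21 and 33 to 44 days, Dnajb1, Bag1 and Cct7 among them, of 10 linear slopes and of 12 logarithmic ones. The cause was not tested. Not run were the settings that leave a comparison without one of its groups or that repeat its own setting. Signal over background is unknown, since z scores carry none.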
